A study of Mus musculus with 8 samples.

Results

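The BCL2 survival family is represented here by 10 mouse genes, picked by symbol and matched through their Ensembl identifiers, out of 54837 genes in the count table. All 10 passed the filter on low counts. The anti-apoptotic genes are Bcl2, Bcl2l1, Mcl1, Bcl2a1b and Bcl2a1d, the effectors are Bax and Bak1, and the BH3-only genes are Bcl2l11, Bbc3 and Pmaip1. RNA was sequenced from CD4 T cells sorted out of mouse spleens, in 8 libraries. Every mouse, WT included, carried Foxp3-eGFP-Cre-ERT2 and had been given tamoxifen on 5 days in a row. Mice that also carried FSF-TIM-3 gave both transgenic groups, each sorted as positive for TIM-3 and FLAG: GFPhi (n = 3) was also GFP+ and FoxP3+, and GFPlow (n = 3) was GFP- and FoxP3-. Mice without FSF-TIM-3 gave WT (n = 2), sorted as GFP+ and FoxP3+ and negative for TIM-3 and FLAG. Cre-ERT2, a recombinase switched on by tamoxifen, is tied to Foxp3 in this design, so GFPlow cells bear the transgene product without the marker of that locus. The study title asks what TIM-3 does to gene expression in regulatory T (Treg) cells. GFPhi against WT is the comparison that differs in the transgene within FoxP3+ cells. GFPhi against GFPlow differs in FoxP3 and GFP within the transgenic mice, and also in the level of Havcr2, the gene of TIM-3. GFPlow against WT differs in the transgene and in FoxP3 and GFP. The sources used here give no strain, no age and no word on pooling. Titles of the transgenic libraries carry M with a number 1, 2 or 3 in both groups, without saying what M stands for. The sex-linked genes Xist and Ddx3y set library 3 of each transgenic group apart from libraries 1 and 2, and WT library 1 from WT library 2. No group thus came from 1 mouse alone. Same-numbered transgenic libraries matched in these genes, but the main model has no block for the number. Which libraries came from separate mice is not stated, so p-values measure the spread between libraries.

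BCL2 family proteins decide whether the outer mitochondrial membrane is opened during apoptosis. BCL2, BCL-XL (Bcl2l1), MCL1 and A1 (the Bcl2a1 genes) hold the effectors BAX and BAK in check. BH3-only proteins such as BIM (Bcl2l11), PUMA (Bbc3) and NOXA (Pmaip1) bind these guardians, and some also activate the effectors directly. In T cells BCL2 is maintained by cytokines that signal through the common gamma chain, BCL-XL and A1 are induced by costimulation and NF-kappaB, and Treg cells are known to depend on MCL1 and to be restrained by BIM.

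The Bcl2a1 genes are near-identical copies on chromosome 9, so their sequence bears on how their reads can be assigned. Over 817 aligned columns the transcripts of Bcl2a1b and Bcl2a1d were 99.1% identical, with 7 columns that differed and a longest shared run of 217 bases. Values of the separate copies are therefore uncertain. The sequences around their RefSeq starts (GRCm38.p6), which reach into the annotated genes, were also alike, with 247 of 256 aligned columns identical, 3 mismatched and 6 opposite a gap. Capitals mark the bases that differ.
Bcl2a1b, chr9:89199023-89199278, plus strand: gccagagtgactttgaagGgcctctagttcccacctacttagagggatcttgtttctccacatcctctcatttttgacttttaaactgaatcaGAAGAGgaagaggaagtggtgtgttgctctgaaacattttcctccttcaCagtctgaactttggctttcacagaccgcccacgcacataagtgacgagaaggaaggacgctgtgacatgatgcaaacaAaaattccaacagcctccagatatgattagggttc
Bcl2a1d, chr9:88731801-88732050, minus strand: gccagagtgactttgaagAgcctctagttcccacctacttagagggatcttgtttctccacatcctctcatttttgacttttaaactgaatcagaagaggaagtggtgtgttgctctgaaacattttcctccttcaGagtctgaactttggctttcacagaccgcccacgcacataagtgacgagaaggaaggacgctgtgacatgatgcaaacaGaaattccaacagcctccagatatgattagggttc

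Promoter windows from RefSeq, 250 bases before to 50 after each start, were found for 9 of the 10 genes, 14 windows in all. Both strands were searched for the motifs of factor families known to act on these genes. The AP-1 motif TGANTCA matched in the Bcl2a1b and the Bcl2a1d window and in 7.81% of all 32851 RefSeq windows. The FOXO motif TGTTTAC matched in a window of Bcl2l11 and in one of Bbc3, against 3.65% of all windows. FOXO factors are known to act on both of these BH3-only genes, so the stretches around the matches are printed with 20 bases on each side and the motif, or its reverse complement, in capitals.
Bcl2l11, chr2:128125791-128125837, plus strand: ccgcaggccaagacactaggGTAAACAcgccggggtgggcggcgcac
Bbc3, chr7:16310074-16310120, plus strand: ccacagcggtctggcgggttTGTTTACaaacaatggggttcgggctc
The STAT motif TTCNNNGAA (8.3% of all windows) matched in none of the 14 windows. No window held more than 1 of the 3 motifs. A match describes letters and is no evidence of binding.

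Total counts were between 44446215 and 55388756 per library. Havcr2, the gene of TIM-3, stood at 1525, 1077 and 1791 CPM (counts scaled by library size and TMM factor) in GFPhi, against 260.1, 127.1 and 538.2 CPM in GFPlow, while the WT libraries had 0.876 and 0.172 CPM. Foxp3 ran from 60.2 to 81.0 CPM in GFPhi and from 1.97 to 4.82 CPM in GFPlow, and stood at 41.7 and 63.2 CPM in WT. Both genes thus followed the labels. Havcr2 was nevertheless higher in every GFPhi than in every GFPlow library, at 2.25 ± 0.61 (SE) on the log2 scale (edgeR quasi-likelihood test, adjusted p = 0.134). FoxP3 state and Havcr2 level therefore cannot be told apart in that comparison. T cell markers were present in every library, with sums of 7 genes between 7561 and 12270 CPM. WT library 1 stood apart, with a TMM factor of 0.694 against 1.041 to 1.07 in the other 7 libraries. It had counts in 18599 genes, against 21248 to 22185 in the others, and 6.54% mitochondrial counts, against 2.35 to 2.78%. Results that rest on it are given with and without it, and what set it apart was not tested.

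Per length, the 10 genes fell into a high and a low set in the transgenic libraries. In GFPhi, Bcl2 (52.9 ± 3.54 RPKM), Mcl1 (51.4 ± 1.11 RPKM) and Bax (50.5 ± 3.77 RPKM) had means within their spread (SD, n = 3; RPKM, CPM per kilobase of exon). Bcl2a1d at 42.1 ± 6.50 and Bcl2a1b at 37.1 ± 3.97 RPKM came next, overlapping each other, and Bcl2a1d also overlapped Bax. Bcl2l1, the BCL-XL gene, followed at 6.28 ± 0.651 RPKM, above Pmaip1 at 4.53 ± 0.601 RPKM. Bcl2l11 at 2.92 ± 0.367 and Bbc3 at 2.56 ± 0.420 RPKM overlapped, and Bak1 was lowest at 0.384 ± 0.0962 RPKM.

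In GFPlow the order differed at the top. Bax led with 45.7 ± 0.176 RPKM, before Mcl1 at 42.3 ± 3.38 and Bcl2 at 36.5 ± 4.55 RPKM, which overlapped each other. Bcl2a1d stood at 25.1 ± 3.62 and Bcl2a1b at 18.3 ± 2.18 RPKM, both below the other 3 of the high set. The low set again ended with Bak1, at 0.232 ± 0.113 RPKM. In WT library 1 the Bcl2a1 genes were the highest of the 10, with 228.5 RPKM for Bcl2a1d and 197.6 RPKM for Bcl2a1b, whereas WT library 2 had 48.8 and 43.3 RPKM for these genes and its highest level was Bcl2 at 64.0 RPKM.

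**Figure D1:**
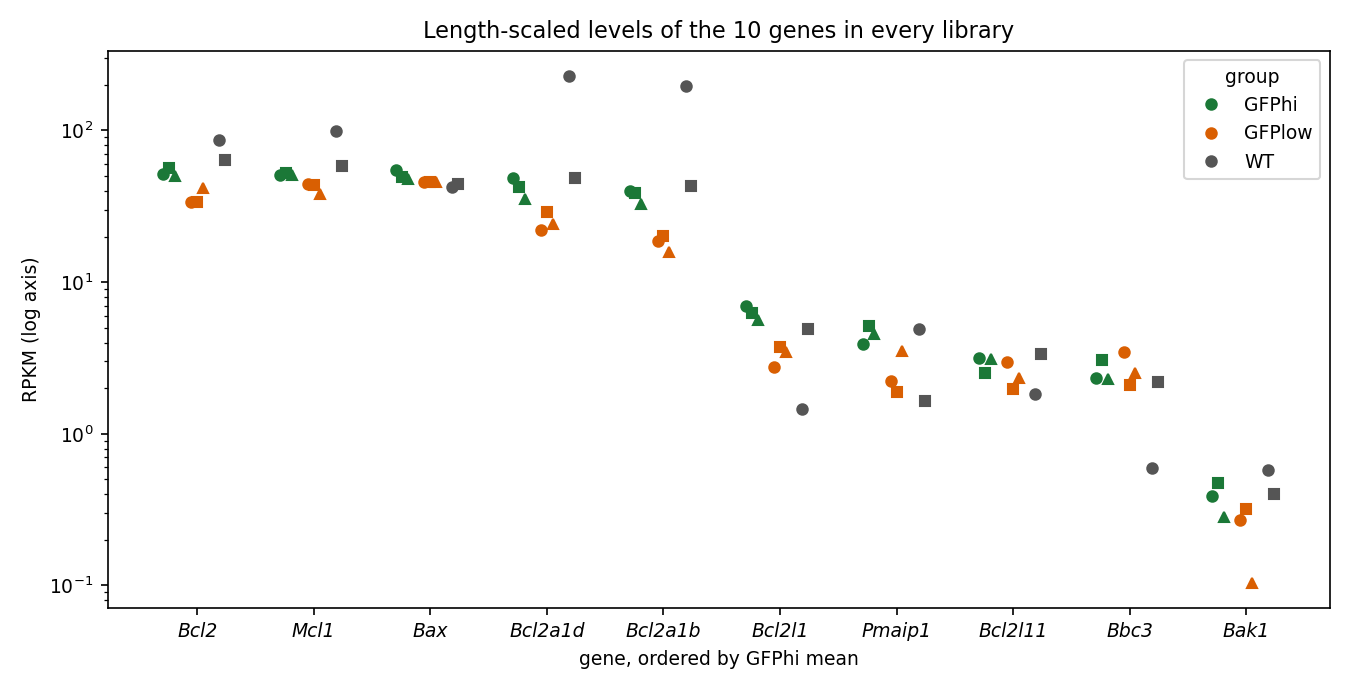
Length-scaled level (RPKM, log axis) of each of the 10 genes in every library, in the order of the GFPhi mean, with 1 point per library (GFPhi green, GFPlow orange, WT grey). Bcl2, Mcl1, Bax and the Bcl2a1 genes lay above 15 RPKM in all 8 libraries, the other 5 genes lay below 7 RPKM, and WT library 1 had the highest Bcl2a1b and Bcl2a1d levels, at 197.6 and 228.5 RPKM.

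Bcl2 (ENSMUSG00000057329, GRCm38 chromosome 1, 106538178 to 106714274, minus strand), the founding guardian of the family, had 472, 521.3 and 460.1 CPM in GFPhi, 310, 310.3 and 382.3 CPM in GFPlow, and 789.1 and 586.2 CPM in WT. The 3 groups did not overlap, with WT highest and GFPlow lowest. The log2 fold change was 0.54 ± 0.19 (SE) between GFPhi and GFPlow (edgeR quasi-likelihood test over all genes, adjusted p = 0.289), -0.51 ± 0.21 between GFPhi and WT (adjusted p = 0.362) and -1.04 ± 0.21 between GFPlow and WT (adjusted p = 0.0387), and the last of these passed the threshold of 0.05. Bcl2 overlaps an antisense gene, D630008O14Rik, with 134 to 664 counts per library, where Bcl2 itself had 15274 to 33999. In sorted bulk cells, fewer cells that express a gene and less RNA per cell cannot be told apart.

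Mcl1 (ENSMUSG00000038612, chromosome 3, 95658788 to 95663176, plus strand), whose short-lived protein is required by many lymphocytes, had 173.5, 179.9 and 173.2 CPM in GFPhi, 152.2, 149.9 and 131.1 CPM in GFPlow, and 340.8 and 198.4 CPM in WT. The order of the groups was as for Bcl2 and again without overlap. No comparison passed in the edgeR model of all 8 libraries. GFPlow against WT was nearest, at -0.90 ± 0.24 (adjusted p = 0.0877), beside -0.62 ± 0.24 for GFPhi against WT (adjusted p = 0.348) and 0.28 ± 0.22 for GFPhi against GFPlow (adjusted p = 0.830).

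Bcl2a1b (ENSMUSG00000089929, chromosome 9, 89199209 to 89207827, plus strand), a gene of the NF-kappaB-induced guardian A1, had 32.7, 31.6 and 26.6 CPM in GFPhi, 15.4, 16.4 and 12.96 CPM in GFPlow, and 161.5 and 35.4 CPM in WT. Bcl2a1d (ENSMUSG00000099974, chromosome 9, 88723285 to 88731914, minus strand) had 41.9, 36.4 and 30.7 CPM in GFPhi, 19.2, 25.2 and 20.7 CPM in GFPlow, and 197.2 and 42.1 CPM in WT. For both genes every GFPhi library was above every GFPlow library, WT library 2 was just above the highest GFPhi library, and WT library 1 was far above all others. Both fell in GFPlow against WT, Bcl2a1b by 2.72 ± 0.52 on the log2 scale (adjusted p = 0.0315) and Bcl2a1d by 2.46 ± 0.53 (adjusted p = 0.0478). Between GFPhi and WT the changes of -1.70 ± 0.51 and -1.72 ± 0.52 did not pass (adjusted p = 0.348 for each). Between GFPhi and GFPlow they were 1.02 ± 0.46 (adjusted p = 0.459) and 0.74 ± 0.47 (adjusted p = 0.715). Since reads may be split between the copies, the 4 genes Bcl2a1a to Bcl2a1d were also summed. A sum would not restore any reads left out because they match several copies. The sum was 76.1, 69.5 and 58.8 CPM in GFPhi, 35.2, 42.3 and 34.4 CPM in GFPlow, and 367 and 78.9 CPM in WT. That is the order of groups of Bcl2a1b and Bcl2a1d, which make up most of the sum.

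Bcl2l1 (ENSMUSG00000007659, chromosome 2, 152780668 to 152831728, minus strand), which encodes BCL-XL, had 31.8, 28.7 and 25.9 CPM in GFPhi, 12.6, 17.2 and 15.9 CPM in GFPlow, and 6.68 and 22.7 CPM in WT. It was the one guardian that was highest in GFPhi, with no overlap with either other group, while GFPlow lay between the WT libraries. The log2 fold change was 0.92 ± 0.40 between GFPhi and GFPlow (adjusted p = 0.430), 0.97 ± 0.46 between GFPhi and WT (adjusted p = 0.377) and 0.05 ± 0.44 between GFPlow and WT (adjusted p = 0.956). WT library 1, the highest library for the other 4 guardians, was the lowest for Bcl2l1.

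**Figure D2:**
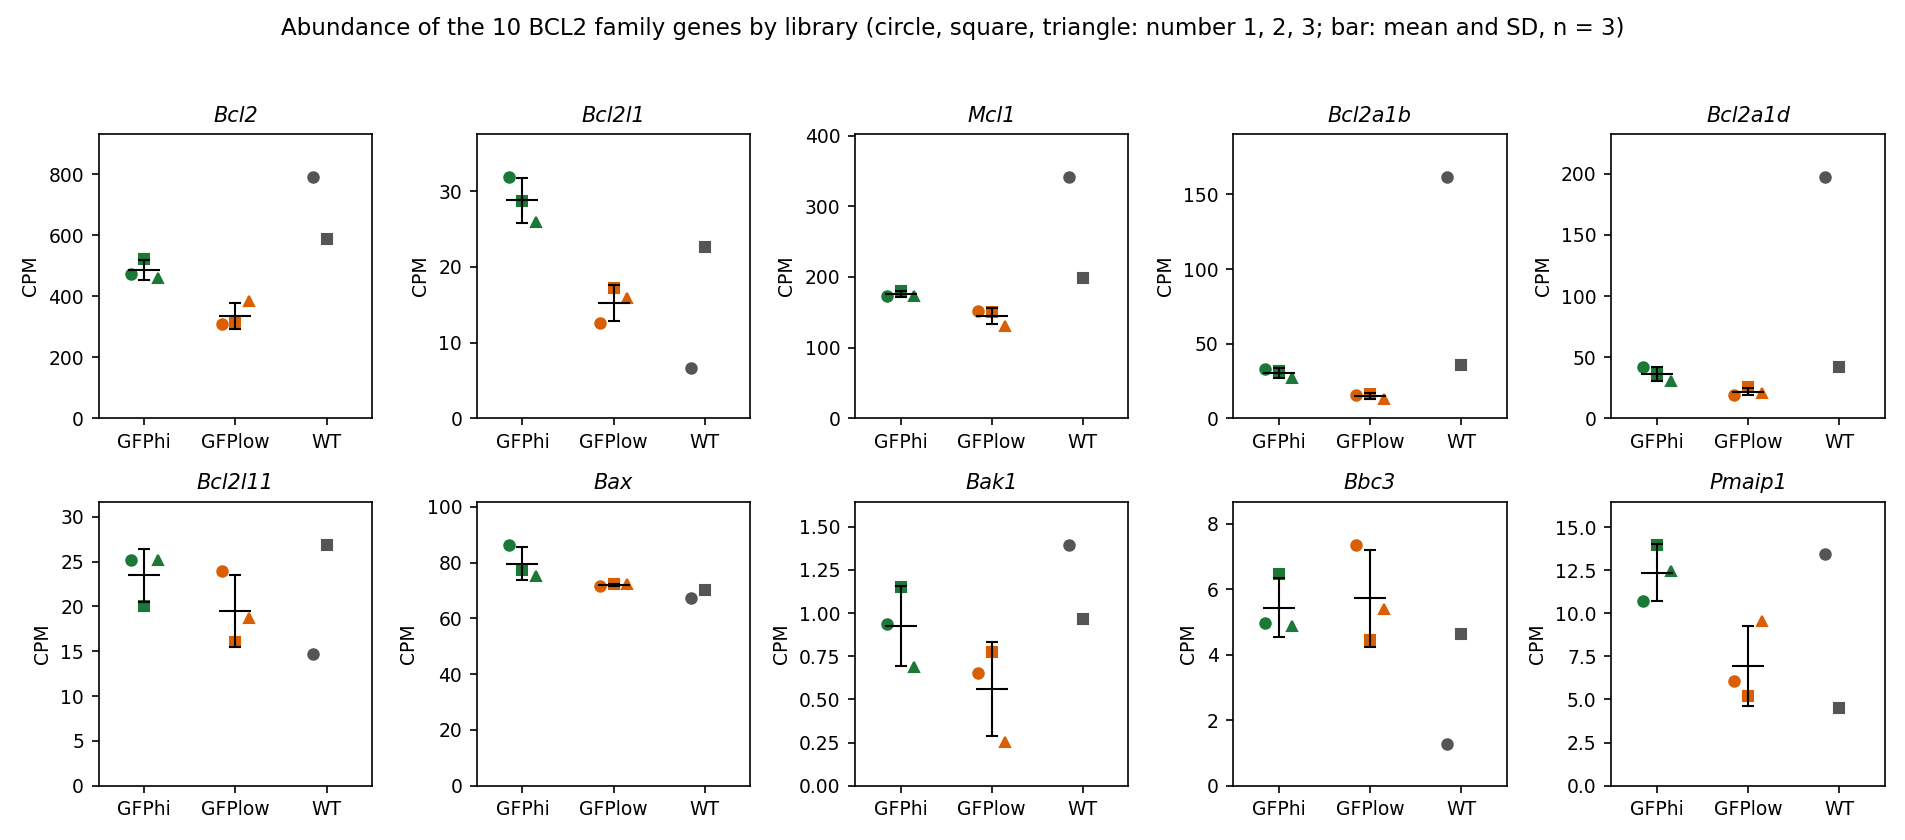
Abundance (CPM) of the 10 genes by group, with 1 symbol per library (circle, square and triangle for numbers 1, 2 and 3) and, for GFPhi and GFPlow, the mean and SD of 3 libraries. Bcl2, Bcl2l1, Mcl1, Bcl2a1b, Bcl2a1d, Bax and Pmaip1 lay higher in all 3 GFPhi libraries than in all 3 GFPlow libraries, and the WT libraries lay far apart for Bcl2a1b, at 161.5 and 35.4 CPM.

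Of the effectors that form the membrane pores, Bax (ENSMUSG00000003873, chromosome 7, 45461697 to 45466898, minus strand) varied least. It had 86.4, 77.2 and 75.3 CPM in GFPhi, 71.7, 72.2 and 72.2 CPM in GFPlow, and 67.3 and 70.2 CPM in WT. GFPhi was highest and WT lowest without overlap, but the log2 fold changes were small, at 0.14 ± 0.14 between GFPhi and GFPlow (adjusted p = 0.941), 0.21 ± 0.16 between GFPhi and WT (adjusted p = 0.50) and 0.07 ± 0.16 between GFPlow and WT (adjusted p = 0.814). Bak1 (ENSMUSG00000057789, chromosome 17, 27019810 to 27029009, minus strand) was barely detected, with 13 to 61 counts per library. It had 0.937, 1.15 and 0.686 CPM in GFPhi, 0.654, 0.772 and 0.252 CPM in GFPlow, and 1.40 and 0.966 CPM in WT. GFPhi overlapped both other groups, GFPlow lay below WT, and no comparison passed (adjusted p = 0.886 between GFPhi and GFPlow, 0.800 between GFPhi and WT and 0.334 between GFPlow and WT). Bak1 overlaps Ggnbp1 on the opposite strand, which had 18 to 92 counts, so without a stated strand setting reads of these genes cannot be told apart.

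The BH3-only genes passed the threshold in no comparison in the edgeR model of all 8 libraries. Bcl2l11 (ENSMUSG00000027381, chromosome 2, 128126038 to 128162547, plus strand), the BIM gene, had 25.2, 20.1 and 25.1 CPM in GFPhi, 23.9, 16.0 and 18.7 CPM in GFPlow, and 14.7 and 26.9 CPM in WT, and all 3 groups overlapped. Its log2 fold change was 0.27 ± 0.28 between GFPhi and GFPlow (adjusted p = 0.960), 0.18 ± 0.31 between GFPhi and WT (adjusted p = 0.781) and -0.09 ± 0.31 between GFPlow and WT (adjusted p = 0.872). Bbc3 (ENSMUSG00000002083, chromosome 7, 16308393 to 16318205, plus strand), the PUMA gene and a target of p53, had 4.97, 6.48 and 4.89 CPM in GFPhi, 7.36, 4.45 and 5.39 CPM in GFPlow, and 1.27 and 4.64 CPM in WT. The transgenic groups overlapped, and WT library 1 was the lowest of all. Its log2 fold change was -0.07 ± 0.47 between GFPhi and GFPlow (adjusted p = 1), 0.87 ± 0.54 between GFPhi and WT (adjusted p = 0.445) and 0.95 ± 0.55 between GFPlow and WT (adjusted p = 0.299). Pmaip1 (ENSMUSG00000024521), the NOXA gene, whose protein binds MCL1 and A1, had 10.7, 14.0 and 12.4 CPM in GFPhi, 6.09, 5.18 and 9.55 CPM in GFPlow, and 13.4 and 4.48 CPM in WT. GFPhi lay above GFPlow without overlap, at 0.83 ± 0.43 on the log2 scale (adjusted p = 0.552), and the WT libraries reached from below both groups to within GFPhi. Against WT its log2 fold change was 0.47 ± 0.48 for GFPhi (adjusted p = 0.614) and -0.36 ± 0.47 for GFPlow (adjusted p = 0.642).

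Set against all genes, the count of members called between GFPhi and GFPlow was 0 of 10, where 2.26% of the 18851 genes tested passed. By DESeq2 it was also 0, where 7.29% of all genes passed. An unadjusted p under 0.05 was reached by 1 member and by 11.6% of all genes. Libraries did not overlap for 7 of the 10, all higher in GFPhi, where 30.0% of all genes did not overlap in either direction. The median log2 fold change of the 10 was 0.63, beside 0.01 over all genes tested. The 10 share the GFPhi and GFPlow libraries and are not independent of each other.

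The result depended on whether the WT libraries shared in the estimate of the spread. Fitted on the 6 transgenic libraries alone, 5 of the 10 rose in GFPhi, which were Bcl2 (adjusted p = 0.0108), Bcl2l1 (0.00811), Mcl1 (0.0414), Bcl2a1b (0.0036) and Bcl2a1d (0.0205), where 6.87% of 17056 genes rose and 12.3% passed in either direction. Their log2 fold changes hardly moved, at 0.53, 0.92, 0.28, 1.02 and 0.74. Without WT library 1, 4 of the 10 rose, where 5.35% of 20545 genes rose. Bcl2a1b then had 1.02 ± 0.14, Bcl2l1 0.91 ± 0.15, Bcl2a1d 0.74 ± 0.15 and Bcl2 0.53 ± 0.09, and the SE of Bcl2a1b had been 0.46 with all 8 libraries. Mcl1 missed the threshold there, at 0.28 ± 0.07 (adjusted p = 0.0504). Of the 5 effector and BH3-only genes none passed in these fits, but Pmaip1, at 0.83 in both, rose in 2 others, by voom with quality weights on all libraries (0.92, adjusted p = 0.0304) and by DESeq2 without WT library 1 (0.83, adjusted p = 0.0277).

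Summed per length, the 5 guardians stood at 198, 197 and 175 RPKM in GFPhi, at 122, 131 and 123 RPKM in GFPlow, and at 613 and 219 RPKM in WT. The 5 effector and BH3-only genes summed to 64.6, 60.1 and 58.0 RPKM in GFPhi, 54.4, 52.1 and 54.3 RPKM in GFPlow, and 50.6 and 52.1 RPKM in WT, most of it Bax. The guardian sums did not overlap between any groups. The other sums were also higher in every GFPhi library than in any GFPlow or WT library, within a narrower range, and those of GFPlow and WT touched at 52.1 RPKM. Within libraries, the log2 ratio of Bcl2 to Bcl2l11 per length was 4.04, 4.51 and 4.0 in GFPhi and 3.51, 4.09 and 4.17 in GFPlow. These overlapped, and WT had 5.56 and 4.26. The log2 ratio of Bcl2 to Bax was -0.09, 0.22 and 0.07 in GFPhi, and -0.43, -0.43 and -0.13 in GFPlow. It was 1.01 and 0.52 in WT, and no groups overlapped. The ratios of Mcl1 and of Bcl2l1 to Bcl2l11, and of Bcl2 to Mcl1, overlapped between GFPhi and GFPlow.

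Between GFPhi and WT, 0 of the 10 members and 0% of all genes passed by edgeR. Even Havcr2 did not pass there, at 11.56 ± 1.13 on the log2 scale (adjusted p = 0.121). A lack of calls in this comparison thus does not show that a gene was unchanged. By DESeq2 0 members passed, where 1.70% of all genes did, and by limma voom with quality weights 0 members passed, where 0% did. An unadjusted p under 0.05 was reached by 4 members, all lower in GFPhi, and by 13.7% of all genes. Libraries did not overlap for 7 members, with Bcl2, Mcl1, Bcl2a1b and Bcl2a1d lower and Bcl2l1, Bax and Bbc3 higher in GFPhi, where 28.1% of all genes did not overlap. The median of the 10 was -0.09 on the log2 scale, beside 0.08 over all genes. Most of these sizes rested on WT library 1. Without it, the log2 fold change was -0.22 ± 0.19 for Bcl2a1b, -0.21 ± 0.21 for Bcl2a1d, -0.18 ± 0.10 for Mcl1, -0.28 ± 0.13 for Bcl2 and 0.34 ± 0.22 for Bcl2l1, and again 0 members passed. Without WT library 2, against WT library 1 alone, 6 members passed, where 40.1% of all genes did.

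Between GFPlow and WT, 3 of the 10 fell, Bcl2, Bcl2a1b and Bcl2a1d, where 2.23% of all genes fell and 3.30% passed in either direction. DESeq2 called 4, where 17.2% of all genes passed. Libraries did not overlap for 6 members, with Bcl2, Mcl1, Bcl2a1b, Bcl2a1d and Bak1 lower and Bax higher in GFPlow, where 40.3% of all genes did not overlap. The median of the 10 was -0.63, beside 0.02 over all genes. Without WT library 1 the 4 that fell were Bcl2 at -0.80 ± 0.13 (adjusted p = 0.0113), Mcl1 at -0.45 ± 0.10 (adjusted p = 0.0371), Bcl2a1b at -1.24 ± 0.18 (adjusted p = 0.00823) and Bcl2a1d at -0.95 ± 0.21 (adjusted p = 0.038), where 3.39% of all genes fell. The Bcl2a1 changes were thus over 1.5 times smaller on the log2 scale without that library. With any 1 of the 6 transgenic libraries left out, and WT library 1 kept, 0 members passed. Over all genes, 213 to 329 passed in these fits, against 623 with all 8 libraries. GFPhi against WT and GFPlow against WT share the WT libraries, so their values do not support each other.

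**Figure D3:**
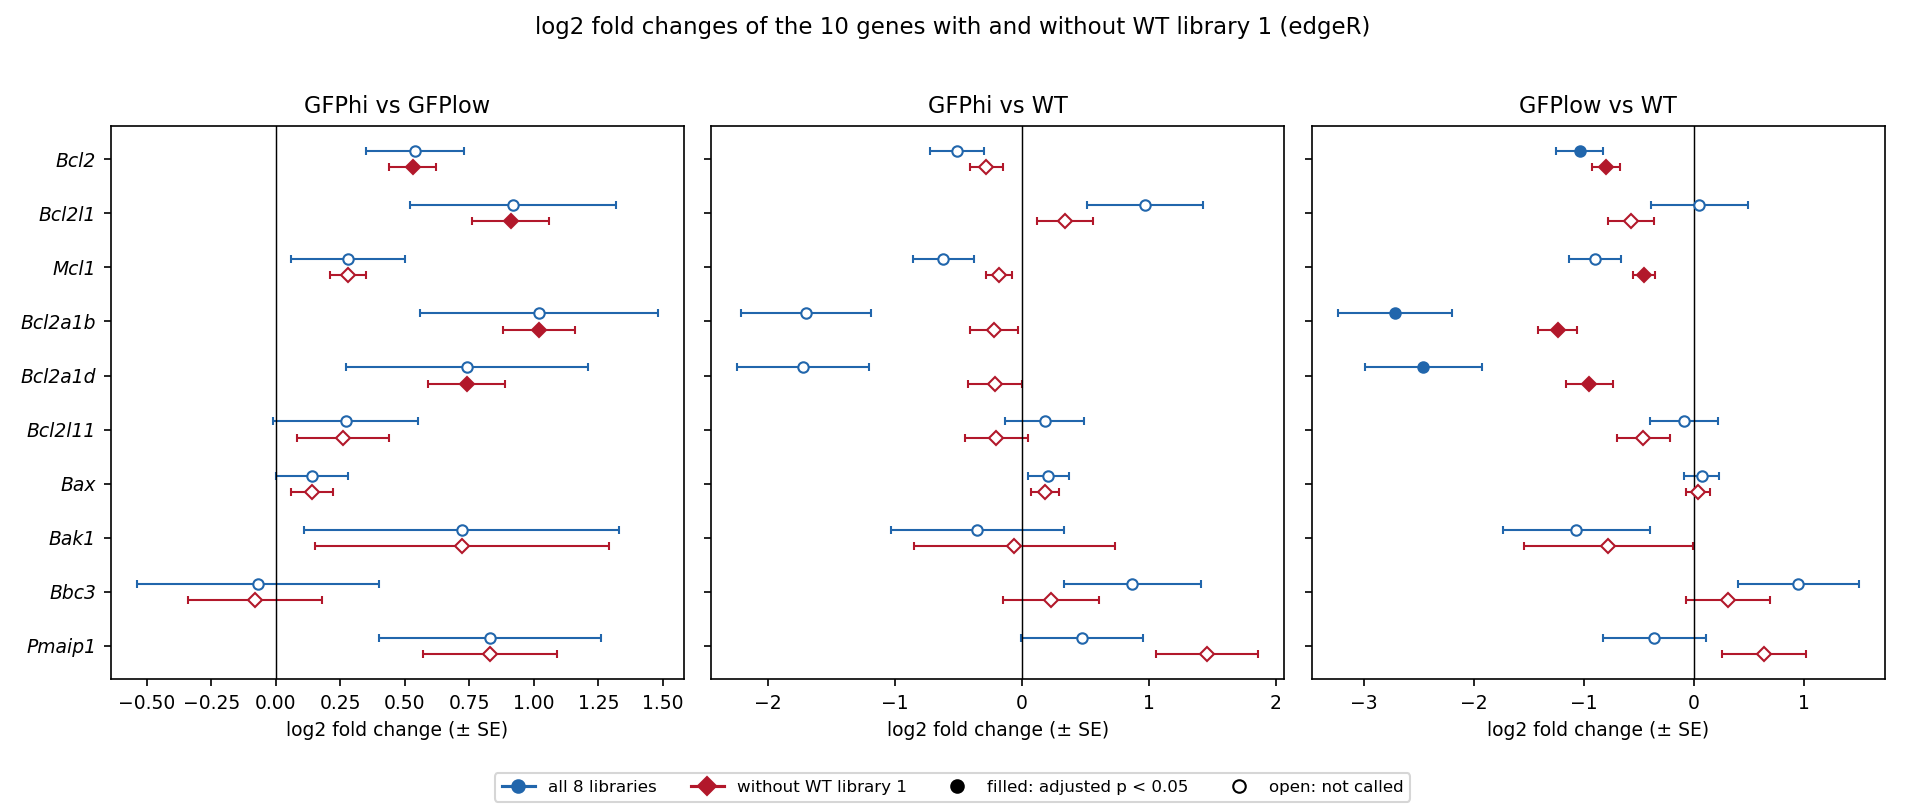
Log2 fold changes with SE (edgeR) of the 10 genes in the 3 comparisons, with all 8 libraries (blue circles) and without WT library 1 (red diamonds), filled where the adjusted p was under 0.05. Between GFPhi and GFPlow the estimates stayed in place and the error bars shrank, so that 4 genes passed, and against WT the Bcl2a1b and Bcl2a1d estimates moved towards 0.

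Genes around the family were followed through 6 lists, and the share of all genes that passed was 2.26% between GFPhi and GFPlow, 0% between GFPhi and WT and 3.30% between GFPlow and WT. Their order here is other BCL2 family, caspases, death receptor arm, transcription factors, protein stability and p53 response. The lists' median log2 fold changes between GFPhi and GFPlow were 0.53, 0.19, 0.05, -0.11, 0.01 and 0.35, beside 0.01 over all genes tested. Between GFPlow and WT they were -0.49, -0.16, 0.19, 0.07, 0.10 and -0.12, beside 0.02, and between GFPhi and WT they lay between -0.16 and 0.32, beside 0.08. Of the other BCL2 family genes, 13 of 16 were tested and 0 passed in any comparison. Bad, a BH3-only gene restrained by AKT, averaged 35.6 ± 2.16 CPM in GFPhi and 24.8 ± 1.76 CPM in GFPlow (SD, n = 3 each), with 55.1 and 38.2 CPM in WT. Bid, the BH3-only gene cleaved by caspase 8, averaged 77.4 ± 2.74 CPM in GFPhi and 49.97 ± 4.36 CPM in GFPlow, with 24.2 and 70.1 CPM in WT. Bid was chosen after its values were seen. Without WT library 1 these 2 rose in GFPhi against GFPlow, by 0.52 ± 0.10 for Bad (adjusted p = 0.0196) and 0.62 ± 0.09 for Bid (adjusted p = 0.00426), and the list then had 14 tested genes. The A1 copy Bcl2a1a was scarce, at 1.27 ± 0.0192 CPM in GFPhi and 0.589 ± 0.0768 CPM in GFPlow, with 6.78 and 1.12 CPM in WT. Bcl2l13 averaged 25.6 ± 3.72 CPM in GFPhi and 26.3 ± 1.83 CPM in GFPlow, with 11.7 and 18.0 CPM in WT, and Bcl2l12 averaged 7.59 ± 0.872 CPM in GFPhi and 10.1 ± 0.525 CPM in GFPlow, with 3.12 and 6.29 CPM in WT.

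Among 18 genes of caspases, their activators and their inhibitors, 1 fell between GFPlow and WT. Xiap, which inhibits caspases, had 51.8, 54.7 and 47.3 CPM in GFPhi, 38.9, 37.0 and 32.0 CPM in GFPlow, and 112.3 and 61.6 CPM in WT. The order of its groups was that of Bcl2, and it fell by 1.27 ± 0.26 in GFPlow against WT (adjusted p = 0.0388), and by 0.77 ± 0.14 without WT library 1 (adjusted p = 0.0208). Naip2, an inflammasome sensor, averaged 16.7 ± 5.08 CPM in GFPhi and 6.98 ± 1.03 CPM in GFPlow, with 11.7 and 13.4 CPM in WT. Cycs, the cytochrome c that leaves the opened mitochondrion, averaged 114.5 ± 11.4 CPM in GFPhi and 99.8 ± 3.10 CPM in GFPlow, with 439.3 and 118.8 CPM in WT. Between GFPhi and GFPlow, with all 8 libraries, Xiap had 0.51 ± 0.23 (edgeR adjusted p = 0.463) and Naip2 1.26 ± 0.28 (adjusted p = 0.0713). Birc3, a gene of the same inhibitor family as Xiap, had 0.43 ± 0.23 (adjusted p = 0.574). In the 6 transgenic libraries alone Xiap (adjusted p = 0.0212), Birc3 (0.0287) and Naip2 (0.0168) rose. Leaving out WT library 1, Xiap had 0.51 ± 0.11, Birc3 0.42 ± 0.10 and Naip2 1.25 ± 0.25.

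Of 10 genes of the death receptor arm, which holds ligands and adaptors beside receptors, 1 rose between GFPhi and GFPlow and 1 rose between GFPlow and WT. Tnfrsf1b, the TNF receptor TNFR2 that is typical of Treg cells, had 137.1, 124.4 and 131.5 CPM in GFPhi, 44.2, 41.1 and 53.3 CPM in GFPlow, and 61.6 and 128.0 CPM in WT. It rose by 1.50 ± 0.27 in GFPhi against GFPlow (adjusted p = 0.0303). Fasl, the death ligand of cytotoxic cells, had 20.4, 25.6 and 24.8 CPM in GFPhi, 41.8, 47.8 and 46.2 CPM in GFPlow, and 6.29 and 13.3 CPM in WT. The 3 groups did not overlap, and it rose by 2.20 ± 0.33 in GFPlow against WT (adjusted p = 0.0138), and by 1.77 ± 0.19 without WT library 1 (adjusted p = 0.00237). Its receptor Fas averaged 107.3 ± 1.11 CPM in GFPhi and 74.0 ± 7.90 CPM in GFPlow, with 245.6 and 113.5 CPM in WT. Tnfrsf1a, the receptor with a death domain, averaged 26.4 ± 4.90 CPM in GFPhi and 40.1 ± 7.68 CPM in GFPlow, with 10.8 and 19.9 CPM in WT. In the fit without WT library 1, Fas and Tnfrsf1b rose and Fasl fell between GFPhi and GFPlow.

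Of 14 genes of transcription factors known to act on the members, 13 were tested and 1 fell between GFPhi and GFPlow. Ikzf1, the gene of Ikaros, had 104.3, 92.1 and 96.4 CPM in GFPhi, 182.0, 213.5 and 194.1 CPM in GFPlow, and 153.3 and 98.8 CPM in WT. It fell by 1.01 ± 0.20 in GFPhi against GFPlow (adjusted p = 0.0405), without overlap. Runx1 averaged 67.2 ± 9.01 CPM in GFPhi and 74.1 ± 5.53 CPM in GFPlow, with 36.7 and 58.4 CPM in WT. Ddit3, the stress factor CHOP that acts on Bcl2l11, averaged 39.8 ± 5.38 CPM in GFPhi and 41.8 ± 4.63 CPM in GFPlow, with 81.1 and 43.3 CPM in WT. Stat5b, which carries the IL-2 signal, averaged 140.1 ± 9.86 CPM in GFPhi and 131.4 ± 11.9 CPM in GFPlow, with 43.5 and 119.9 CPM in WT. Nfkb1, a subunit gene of NF-kappaB, did not pass with all 8 libraries. It had 0.68 ± 0.26 between GFPhi and GFPlow (edgeR adjusted p = 0.328) and -0.48 ± 0.29 between GFPlow and WT (adjusted p = 0.315). Its WT libraries lay apart, at 102.1 and 205.7 CPM. Fitted on the 6 transgenic libraries alone, it rose by 0.68 ± 0.10 in GFPhi (adjusted p = 0.00411). Without WT library 1, GFPhi was higher than GFPlow by 0.68 ± 0.10, and GFPlow lower than WT library 2 by 0.89 ± 0.13. The calls of Tnfrsf1b and Ikzf1 were lost when any 1 of the 6 transgenic libraries was left out, as was that of Xiap. The call of Fasl was lost when any 1 GFPlow library was left out.

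Controllers of member protein stability (12 of 14 listed genes tested) and p53 response genes (12 of 12 tested) had 0 genes that passed in any comparison. In the first list Dynll1, a dynein light chain that binds BIM, averaged 310.4 ± 11.2 CPM in GFPhi and 316.5 ± 7.73 CPM in GFPlow, with 940.2 and 314.7 CPM in WT. Dynll2 averaged 23.7 ± 0.232 CPM in GFPhi and 18.7 ± 3.39 CPM in GFPlow, with 51.7 and 18.1 CPM in WT, and Usp9x, the deubiquitinase of MCL1, averaged 83.1 ± 6.13 CPM in GFPhi and 83.8 ± 13.9 CPM in GFPlow, with 36.0 and 80.1 CPM in WT. For Dynll1 and Usp9x the libraries other than WT library 1 overlapped throughout. Ambra1 averaged 20.3 ± 3.21 CPM in GFPhi and 21.3 ± 1.85 CPM in GFPlow, with 6.88 and 17.1 CPM in WT. In the p53 list, Cdkn1a, the cell cycle inhibitor p21, averaged 3.66 ± 0.810 CPM in GFPhi and 1.06 ± 0.445 CPM in GFPlow, with 1.30 and 2.93 CPM in WT, and Phlda3 averaged 3.94 ± 0.580 CPM in GFPhi and 1.01 ± 0.250 CPM in GFPlow, with 1.04 and 5.48 CPM in WT. Trp53inp1 averaged 196.9 ± 11.3 CPM in GFPhi and 156.1 ± 3.17 CPM in GFPlow, with 226 and 219.6 CPM in WT, and Mdm2, which degrades p53, averaged 103 ± 4.51 CPM in GFPhi and 121.8 ± 3.28 CPM in GFPlow, with 42.5 and 87.1 CPM in WT. Without WT library 1, Cdkn1a, Phlda3 and Trp53inp1 rose in GFPhi against GFPlow, 3 of 12, where 5.35% of all genes rose. Of the members that p53 also acts on, Bbc3, Bax and Pmaip1 did not pass in that fit, and Pmaip1 had 0.83 ± 0.26 (adjusted p = 0.1).

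**Figure D4:**
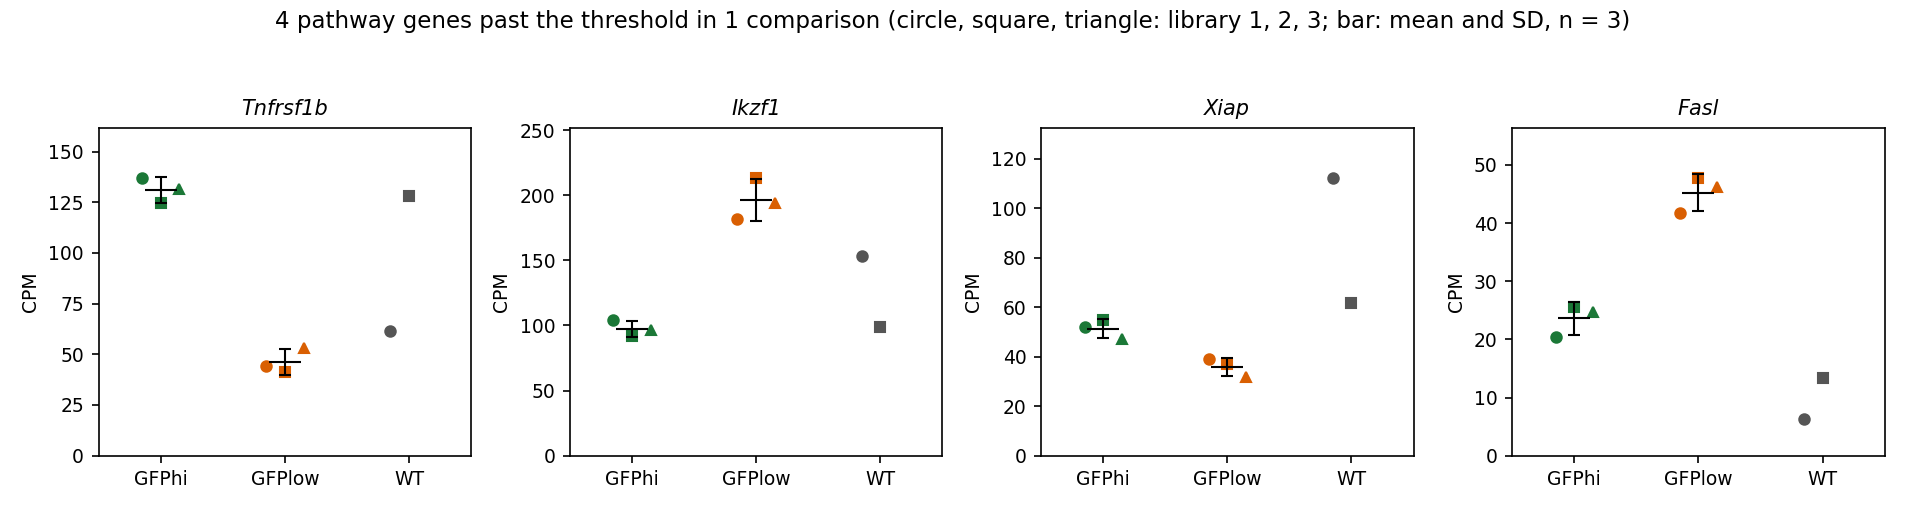
Abundance (CPM) of 4 pathway genes that passed the threshold in a comparison, with 1 symbol per library and the mean and SD of 3 libraries for GFPhi and GFPlow. Tnfrsf1b was higher and Ikzf1 lower in all 3 GFPhi than in all 3 GFPlow libraries, Xiap was lower in GFPlow than in WT, and Fasl was higher in GFPlow, at 41.8 to 47.8 CPM, than in WT, at 6.29 and 13.3 CPM.

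The markers of other cells were read beside these genes. B cell markers, whose cells also express Bcl2 and the Bcl2a1 genes, summed to 46.4 to 54.0 CPM in GFPhi, 8.35 to 16.9 CPM in GFPlow, and 75.8 and 56.3 CPM in WT, in the group order of Bcl2 and the Bcl2a1 genes. Most of that was Cd79b, with 43.2 to 50.1 CPM in GFPhi, 3.03 to 11.2 CPM in GFPlow, and 70.4 and 50.6 CPM in WT, and 4 of the 7 markers were tested, of which Cd79b alone rose in GFPhi against GFPlow. The 4 tested split evenly in direction there, with a median log2 fold change of -0.30. Cd22 had 1.80 to 3.28 CPM in GFPhi, 2.77 to 5.43 CPM in GFPlow, and 2.01 and 3.16 CPM in WT, and Pax5 was at 0 in GFPhi and WT and reached 1.59 CPM in GFPlow, so neither had the group order of Cd79b. The defining marker Ms4a1 reached at most 0.828 CPM. Neutrophil markers, whose cells are rich in A1, summed to 0.206 to 0.964 CPM in GFPhi, 2.80 to 12.1 CPM in GFPlow, and 1.98 and 0.0172 CPM in WT, with Ly6g and Mmp8 at 0 throughout. Myeloid markers summed to 1.62 to 28.0 CPM in GFPhi, 6.56 to 238.5 CPM in GFPlow, and 9.25 and 34.1 CPM in WT, the highest value being that of GFPlow library 3. Neither sum had the group order of the Bcl2a1 genes. The part of B cells, neutrophils and myeloid cells in the values of the members was not tested.

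Beside Fasl, NK markers summed to 182.7 to 361.8 CPM in GFPhi, 244 to 363.2 CPM in GFPlow, and 528.9 and 132.4 CPM in WT. Most of that was Nkg7, and without it the sum was 2.35 to 6.30 CPM in GFPhi, 32.9 to 68.7 CPM in GFPlow, and 9.31 and 1.85 CPM in WT, highest in GFPlow as Fasl was. Klrd1 had 0 to 0.376 CPM in GFPhi, 14.4, 14.4 and 19.2 CPM in GFPlow, and 3.08 and 0 CPM in WT. Of 5 tested, Klrb1c was lower in GFPhi than in GFPlow and Eomes higher in GFPlow than in WT. The defining marker Ncr1 was at 0 in 2 of the 3 GFPlow libraries. In GFPlow library 3 it stood at 7.81 CPM, its highest value in any library. The CD8 pair summed to 19.7 to 23.7 CPM in GFPhi, 21.5 to 32.8 CPM in GFPlow, and 37.7 and 16.2 CPM in WT. Platelet markers, whose cells depend on Bcl2l1, summed to 0.188 to 0.640 CPM in GFPhi, 0.336 to 5.30 CPM in GFPlow, and 40.8 and 3.24 CPM in WT, so they were highest in the library where Bcl2l1 was lowest. Dendritic markers summed to 6.26 to 9.15 CPM in GFPhi, 4.15 to 7.17 CPM in GFPlow, and 7.92 and 5.66 CPM in WT. Erythroid markers summed to 1.51 to 6.99 CPM in GFPhi, 0.785 to 16.9 CPM in GFPlow, and 2.76 and 5.59 CPM in WT. The part of NK cells in the Fasl result, and of platelets in the Bcl2l1 values, was not tested.

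Among 8076 genes with a mean log2 CPM above 3, the 3 most like each called member were ranked by Pearson correlation of log2 CPM over the 8 libraries, as a description. For Bcl2 they were Osgepl1 (r = 0.992), Fam111a (r = 0.991) and Gtf2f2 (r = 0.986). For Bcl2a1b they were Fam92a (r = 0.996), Eef1akmt1 (r = 0.995) and Sfr1 (r = 0.994), and for Bcl2a1d Smarca5 (r = 0.996), Sfr1 (r = 0.994) and Fam92a (r = 0.993). All these genes were highest in WT library 1, which weighs most in each r. Among the members, Bcl2a1b and Bcl2a1d (r = 0.989), whose reads may be split between the copies, and Mcl1 and Bcl2a1b (r = 0.988) were the most alike of the 45 pairs, with the same library at the top.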

How the data were processed

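A single table of raw counts per Ensembl gene, not normalized, was deposited by the authors. The submitters' processing notes name HTSeq 0.11.2, HISAT2 2.1.0 and SAMtools 1.9, as well as R 4.0, edgeR and build GRCm38, without their roles. The sources used here give neither the annotation nor the strand setting. Cells were sorted into lysis buffer and libraries prepared with SMART-Seq HT and with Nextera XT, per the labels' protocols. Without molecular identifiers, reads are not independent molecules.

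Symbols and coordinates came from GENCODE vM21. From the counts, filterByExpr kept 18851 genes, libraries were scaled by TMM, and all 8 libraries entered 1 edgeR 4.0.16 model of the 3 group means (robust quasi-likelihood, 5 residual degrees of freedom, two-sided, Benjamini-Hochberg over all genes tested, threshold 0.05). RPKM used union exon length. limma 3.58.1, DESeq2 1.42.0, R 4.3.3, Python 3.11.15, pandas 2.3.3, Biopython 1.88 and matplotlib 3.10.9 were also used, and the model was tested on simulated data. Promoter sequences are from RefSeq (GRCm38.p6).

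The members and lists were chosen with earlier results of these data known. All 10 members were named, with up to 4 genes per pathway list by smallest adjusted p and the 3 genes most like each called member. Genes named only by their values without WT library 1 (Birc3, Nfkb1, Bid), and the markers named, were chosen after their values were seen. Alternatives were other scalings and filters, DESeq2, voom with quality weights, only the libraries compared, a block for the replicate number, and each library left out. The same alternatives for the pathway genes that passed were added after seeing the data. Some genes of the lists are not reported here.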

Additional observations from a re-analysis of the deposited data

How the results depend on the processing

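Between GFPhi and GFPlow, where 0 of the 10 genes passed with all 8 libraries, 5 passed by voom with quality weights (12.0% of all genes), 5 in the 6 transgenic libraries alone (12.3%), 6 by DESeq2 without WT library 1 (15.8%) and 5 by voom without WT library 1 (10.2%). Pmaip1 was among those called in the first and the third of these. Leaving out 1 library at a time gave 0 to 5, with 4 without WT library 1 (9.66% of all genes), 5 without WT library 2 (9.64%) and 0 in each of the other fits. In these other fits 105 to 177 genes passed over all, against 426 with all 8 libraries. Between GFPhi and WT, leaving out 1 library gave calls only in the fit without WT library 2, which left 1 WT library. Between GFPlow and WT, where 3 passed, voom gave 0 (0.382% of all genes) and the 5 libraries compared alone gave 0 (0.187%). No filter gave 2, where 755 genes passed over all (Bcl2 then had an edgeR adjusted p of 0.0502). Each fit without 1 transgenic library gave 0, where 213 to 329 genes passed over all. The highest count came from the fit without WT library 2, which left 1 WT library. With 1 WT library left out, the other was assumed to vary like the other groups.

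Same-numbered GFPhi and GFPlow libraries deviated together with correlations of 0.067, 0.066 and 0.149, so the numbers were not taken as pairs, although each GFPhi library correlated best with the GFPlow library of its number, and Xist was high in both libraries of number 3, at 237 CPM in GFPhi and 184 CPM in GFPlow. The numbers do not extend to WT in this respect, since Xist was at 0 CPM in WT library 1 and at 242 CPM in WT library 2, with the Y-linked Ddx3y at 170 and 6.16 CPM, so the WT libraries also differed in these sex-linked genes. With the replicate block, 4 members passed between GFPhi and GFPlow in the libraries compared alone (10.3% of all genes) and 0 with all libraries (0.965%). Between GFPlow and WT the block gave 0 in both fits (1.23% and 0.838%), and as a random effect 1 (3.34%).

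Some log2 fold changes turned round, and none of the values with the reversed sign passed the threshold. The 1.21 given below for Bcl2l1 had the sign of the main fit. Upper-quartile scaling, which moved the median of all genes between GFPlow and WT to -0.12, gave -0.09 for Bax and -0.04 for Bcl2l1 in that comparison, and a filter of 5 CPM gave -0.04 and -0.01. For Bcl2l1 there, voom gave -0.04, DESeq2 without WT library 1 -0.57, voom without it -0.59, and leaving out 1 library -0.57 to 1.21. For Pmaip1 there, voom gave 0.05, DESeq2 without WT library 1 0.64, voom without it 0.56, and leaving out 1 library -0.93 to 0.64. Bcl2l11 there ran from -0.46 to 0.44 with 1 library left out. Between GFPhi and WT, Bcl2l11 was at -0.20 by DESeq2 and -0.23 by voom without WT library 1, and from -0.20 to 0.70 with 1 library left out, and Pmaip1 from -0.09 to 1.46. Bbc3 between GFPhi and GFPlow ran from -0.23 to 0.15. Among the pathway genes, the call of Ikzf1 was also lost with upper-quartile scaling, those of Tnfrsf1b, Ikzf1 and Xiap with the block on all libraries, and those of Xiap and Fasl by voom, in the libraries compared alone, and there with the block. The cause of these changes was not tested. Bak1, at 13 to 61 counts, had too few reads for a small change to be detectable at this depth.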
